A study of Mus musculus with 12 samples.

Results

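The circadian clock genes described here are 10 genes, chosen by name: *Per1*, *Per2*, *Per3*, *Cry1*, *Cry2*, *Nr1d1*, *Nr1d2*, *Dbp*, *Arntl* and *Tef*. All 10 were found by gene symbol among 52169 symbols, with 92 of the 189364 transcripts that name a gene, and all 10 passed the filter on low counts in every comparison. RNA was sequenced from the striatum of C57BL/6J mice whose right medial forebrain bundle had received the neurotoxin 6-OHDA after protection of noradrenergic neurons with desipramine. The mice were female by the account of the methods. This lesion removes the dopamine input of the right striatum and leaves the left striatum unlesioned, and the age of the mice is not given in the sources used here. All groups received L-DOPA, the precursor of dopamine, at 10 mg/kg with 7.5 mg/kg benserazide, which blocks its conversion outside the brain. Acute mice received 1 dose and chronic mice received 9 daily doses, and tissue punches were taken 1 hour after the last dose. The 4 groups are acute unlesioned (AL_L), acute lesioned (AL_R), chronic unlesioned (ChL_L) and chronic lesioned (ChL_R), with 3 libraries each. No library of a saline-treated or an unoperated mouse was analysed here, so every unlesioned striatum comes from a lesioned and L-DOPA-treated animal.

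The circadian clock is a transcriptional feedback loop that runs in most cells, neurons of the striatum included, with a period of about a day. ARNTL (BMAL1) pairs with CLOCK or NPAS2 and activates the *Per* and *Cry* genes, the nuclear receptor genes *Nr1d1* and *Nr1d2*, and *Dbp* and *Tef*. PER and CRY proteins repress this pair, NR1D1 and NR1D2 repress *Arntl*, and DBP and TEF activate genes through a further element, the D-box. Because their transcripts follow the time of day, these genes are used to read the clock hour of a tissue sample. The mice were kept in a cycle of light and dark according to the study's methods, but the hour of injection or of tissue collection is not given in the sources used here. The acute and the chronic group are separate sets of mice with unequal days of treatment, so an effect of the hour of collection and an effect of repeated L-DOPA cannot be told apart in a comparison of these groups. The levels of the 10 genes are therefore given in every library, first for the unlesioned and then for the lesioned striatum.

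Levels are given in CPM, the count relative to library size, with TMM scaling, which corrects each library for its total and composition. Since reads shared by several transcripts count on each of them, a gene was represented by the 1 transcript of it that had most counts on average. Shares of all transcripts, given below beside counts of members, include several transcripts of a gene. Gene counts beside them come from a fit on 1 transcript per gene of known GC content, the share of G and C bases. The libraries held 87695043 to 173116525 counts over all transcripts, and the representative transcripts of the 10 genes held between 459 and 17597 counts in a library. The summed level of 8 medium spiny neuron markers, which define the principal striatal neuron, lay between 1745 and 2388 CPM in all 12 libraries, and all 8 markers were counted in each. Of the markers of other tissue, 6 genes of cortical glutamatergic neurons summed to 13.0 to 30.2 CPM in acute unlesioned, 1.80 to 15.7 CPM in acute lesioned, 5.23 to 41.3 CPM in chronic unlesioned and 1.64 to 22.5 CPM in chronic lesioned libraries. Chronic unlesioned replicate 2 stood apart with 468 CPM of 5 choroid plexus markers, against at most 3.13 CPM in the lesioned chronic libraries and 1.29 CPM in any acute library.

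Sequence upstream of the genes is shown first for the 5 members that differed between chronic and acute L-DOPA in the lesioned striatum. The promoters are 300 bases in 5′ to 3′ direction, from 250 bases before the start site to 50 bases after it, from RefSeq on GRCm38.p6, and entries were found for 9 of the 10 genes (12 promoters). Capitals mark matches, on either strand, to the E-box CACGTG, the variant E'-box CACGTT, the D-box TTANGTAA, the ROR element TAGGTCA or the cAMP-responsive element TGACGTCA. *Per1* is shown from chr11:69098699-69098998 (plus strand), *Cry2* from chr2:92434020-92434319 (minus strand), *Per3* from chr4:151044616-151044915 (minus strand), *Dbp* from chr7:45704997-45705296 (plus strand) and *Tef* from chr15:81802423-81802722 (plus strand).
Per1: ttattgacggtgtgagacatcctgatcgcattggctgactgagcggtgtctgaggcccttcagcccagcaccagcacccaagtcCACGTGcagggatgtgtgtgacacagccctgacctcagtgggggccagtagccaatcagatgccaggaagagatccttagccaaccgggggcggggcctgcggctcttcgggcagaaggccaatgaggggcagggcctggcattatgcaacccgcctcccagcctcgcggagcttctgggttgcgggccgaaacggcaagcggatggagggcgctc
Cry2: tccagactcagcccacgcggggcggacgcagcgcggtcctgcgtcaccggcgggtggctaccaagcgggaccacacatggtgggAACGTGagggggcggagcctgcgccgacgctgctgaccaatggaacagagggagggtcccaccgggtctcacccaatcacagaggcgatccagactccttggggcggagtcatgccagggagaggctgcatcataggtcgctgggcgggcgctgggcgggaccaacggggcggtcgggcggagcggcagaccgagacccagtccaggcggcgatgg
Per3: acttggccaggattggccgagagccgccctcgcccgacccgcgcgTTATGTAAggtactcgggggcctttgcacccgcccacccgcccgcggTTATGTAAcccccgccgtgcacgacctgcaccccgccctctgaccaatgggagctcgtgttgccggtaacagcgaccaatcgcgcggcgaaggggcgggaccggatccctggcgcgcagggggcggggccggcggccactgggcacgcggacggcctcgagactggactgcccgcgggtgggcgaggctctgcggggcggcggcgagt
Dbp: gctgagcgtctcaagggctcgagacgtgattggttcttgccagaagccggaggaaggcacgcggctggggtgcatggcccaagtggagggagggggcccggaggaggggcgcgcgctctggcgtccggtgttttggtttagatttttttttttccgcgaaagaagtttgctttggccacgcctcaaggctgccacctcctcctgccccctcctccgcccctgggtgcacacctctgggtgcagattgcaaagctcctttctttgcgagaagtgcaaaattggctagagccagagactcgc
Tef: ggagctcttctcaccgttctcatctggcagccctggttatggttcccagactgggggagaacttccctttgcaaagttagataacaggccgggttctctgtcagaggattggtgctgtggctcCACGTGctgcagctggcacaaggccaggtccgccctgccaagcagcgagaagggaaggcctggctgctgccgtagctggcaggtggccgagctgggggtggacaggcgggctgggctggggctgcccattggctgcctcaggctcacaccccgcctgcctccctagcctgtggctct
*Per1* and *Tef* held the E-box here, as did *Cry1* of the promoters not shown, against 7.15% of all 32851 mouse promoters of this length. *Per3* alone held the D-box, with 2 matches, against 2.32% of all promoters. The E'-box was matched in *Cry1*, *Cry2* and *Nr1d1* (4.68% of all promoters) and the ROR element in 1 *Arntl* promoter (2.61%). None of the 12 promoters held the cAMP-responsive element, which 1.79% of all promoters hold. A match describes the letters in this window, and these windows do not reach the elements that lie further from the start.

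On the scale of the authors' normalized expression, which divides by transcript length and so allows levels of different genes to be compared, *Tef* was the highest of the 10 genes in every group (1.09 ± 0.03 (SD, n = 3) in acute unlesioned striatum). *Dbp* followed at 0.825 ± 0.071, then *Nr1d1* at 0.620 ± 0.038, *Cry2* at 0.344 ± 0.004, *Per1* at 0.295 ± 0.015, *Nr1d2* at 0.194 ± 0.013 and *Arntl* at 0.141 ± 0.010. *Cry1* at 0.0860 ± 0.0044 and *Per2* at 0.0820 ± 0.0084 overlapped, and *Per3* was lowest at 0.0550 ± 0.0051. No other neighbours in this order overlapped among the 3 acute unlesioned libraries. In chronic lesioned striatum the order differed at the top, with *Per1* at 0.759 ± 0.008 next below *Tef* and *Dbp* at 0.465 ± 0.035 below *Nr1d1* at 0.543 ± 0.034. The level of *Nr1d1* may include reads of *Thra*, an antisense gene whose span, introns included, overlaps that of *Nr1d1* by 1072 bases. The *Nr1d1* transcript used here held 1565 counts per kilobase on average, against 996 for an *Nr1d1* transcript that overlaps no other gene. Its place above *Dbp* in chronic lesioned striatum may therefore depend on the transcript used.

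**Figure D1:**
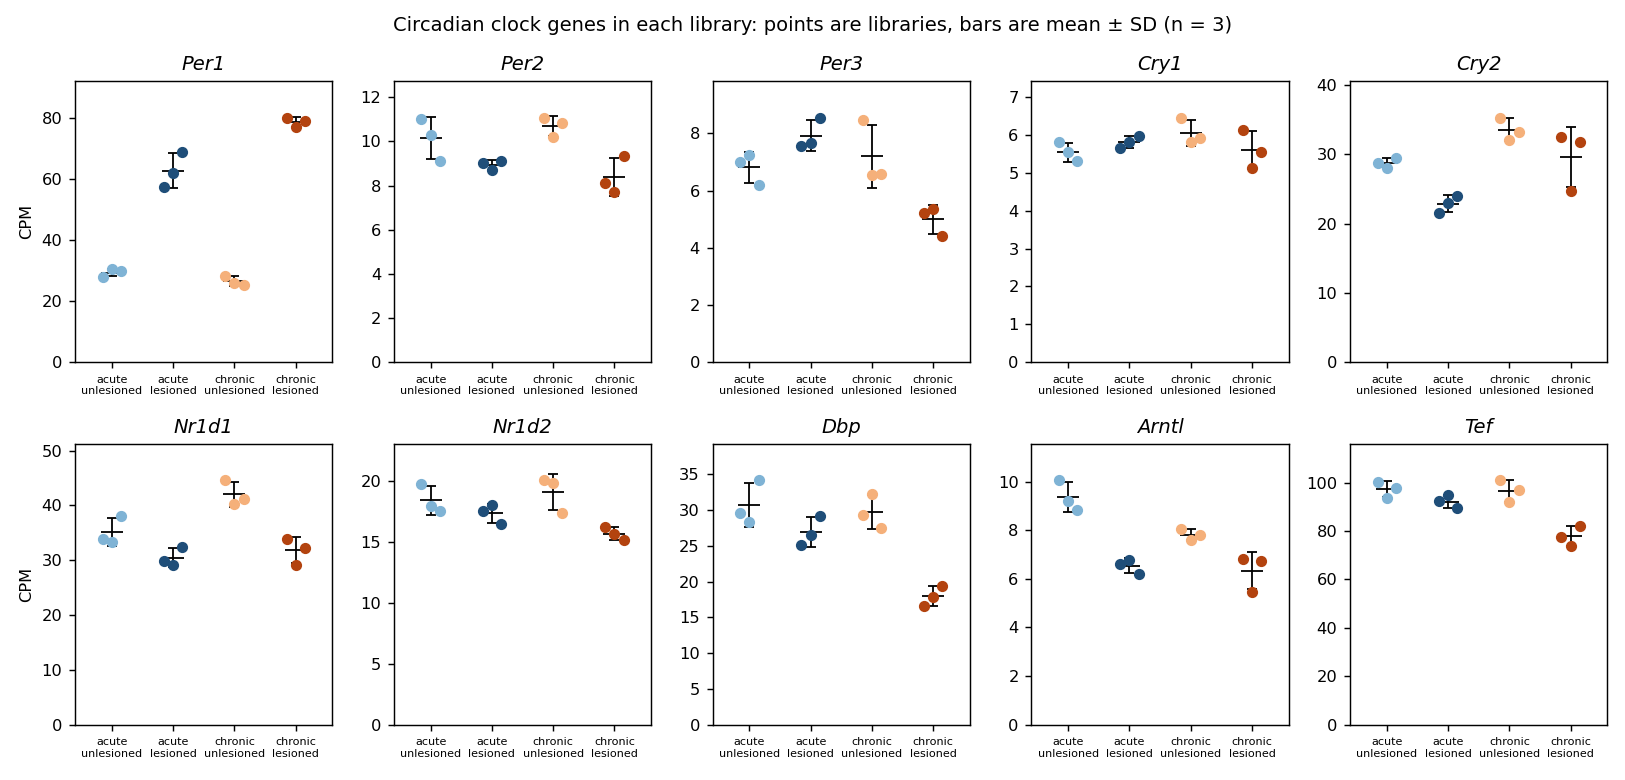
CPM of the 10 circadian clock genes in each of the 12 libraries, with 1 panel per gene, groups on the x axis, and a bar for the mean ± SD of 3 libraries. *Per1* separates the lesioned (57.4 to 80.2 CPM) from the unlesioned libraries (25.4 to 30.3 CPM), and *Dbp* is lowest in the 3 chronic lesioned libraries (16.6 to 19.4 CPM).

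In the unlesioned striatum, none of the 10 clock genes differed between chronic and acute L-DOPA by edgeR's quasi-likelihood test (Benjamini-Hochberg adjusted p under 0.05), where 2.61% of 129187 transcripts did. Of 14372 genes, 166 were called higher and 263 lower. At an unadjusted p under 0.05 the count was 3 of 10 members (*Cry2*, *Nr1d1* and *Arntl*), against 21.5% of all transcripts, and DESeq2 called 2 of them (*Cry2* and *Nr1d1*), beside 5.62% of the transcripts it tested. The median size of the log2 change over the 10 genes was 0.10, against 0.14 over all transcripts tested. Over the 6 unlesioned libraries, the highest level of a clock gene was between 1.10 times (*Tef*) and 1.37 times (*Per3*) its lowest.

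*Arntl*, the activator of the loop (chr7:120350979-120457636, mm9), stood at 10.0, 9.19 and 8.83 CPM in acute and 8.06, 7.60 and 7.79 CPM in chronic unlesioned striatum. The groups did not overlap, as for 26.2% of all transcripts in this comparison, and the log2 difference was −0.26 ± 0.07 (SE, edgeR adjusted p = 0.0785). *Nr1d1*, whose product represses *Arntl* (chr11:98629249-98636647), had the opposite order, with 33.9, 33.3 and 38.0 CPM in acute and 44.6, 40.3 and 41.2 CPM in chronic libraries. Its difference was 0.26 ± 0.07 on the log2 scale (edgeR adjusted p = 0.0790), and the *Nr1d1* transcript free of *Thra* gave 0.30 ± 0.08 (edgeR adjusted p = 0.0760). *Thra* itself differed by 0.30 ± 0.08 (edgeR adjusted p = 0.0733). *Nr1d2* (chr14:19036570-19071620), the second gene of this repressor family, stood at 19.7, 17.9 and 17.5 CPM in acute and 20.0, 19.8 and 17.4 CPM in chronic libraries, with groups that overlapped and a log2 difference of 0.05 ± 0.08.

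The *Cry* and *Per* genes encode repressors of the main loop. *Cry2* (chr2:92243803-92274226) had 28.8, 28.0 and 29.5 CPM in acute and 35.3, 32.0 and 33.3 CPM in chronic unlesioned libraries, a log2 difference of 0.22 ± 0.06 (edgeR adjusted p = 0.0837). *Cry1* (chr10:84594445-84647799) had 5.81, 5.55 and 5.31 CPM against 6.47, 5.82 and 5.92 CPM, with groups that did not overlap by a narrow margin and a log2 difference of 0.12 ± 0.08 (edgeR adjusted p = 0.377). *Per1* and *Per2* also respond directly to stimuli that reset the clock, and all 3 *Per* genes overlapped between acute and chronic libraries. *Per1* (chr11:68912458-68923462) stood at 27.9, 30.3 and 29.8 CPM in acute and 28.3, 26.1 and 25.4 CPM in chronic libraries, and the 95% interval of its log2 difference ran from −0.29 to 0.01. *Per2* (chr1:93312559-93355905) had 11.0, 10.3 and 9.13 CPM against 11.1, 10.2 and 10.9 CPM, with an interval from −0.10 to 0.25. *Per3* (chr4:150377764-150418731) had 7.01, 7.25 and 6.21 CPM against 8.48, 6.54 and 6.60 CPM, with an interval from −0.16 to 0.31 and chronic replicate 1 above the other 5 libraries.

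*Dbp* and *Tef*, output genes of the clock that encode activators of the PAR bZIP family, were close to 0 change in unlesioned striatum. *Dbp* (chr7:52960458-52965525), whose transcript has one of the widest daily ranges of these genes in many tissues, stood at 29.5, 28.4 and 34.2 CPM in acute and 29.4, 32.2 and 27.6 CPM in chronic libraries. The 95% interval of its log2 difference ran from −0.24 to 0.15. *Tef* (chr15:81632851-81657287) stood at 100.2, 93.6 and 97.8 CPM against 101.0, 91.9 and 97.1 CPM, with an interval from −0.15 to 0.13. Both genes overlapped between the groups. Without chronic unlesioned replicate 2, the library with choroid plexus transcripts, 2 members were called in this comparison, *Cry2* (0.25, edgeR adjusted p = 0.0296) and *Nr1d1* (0.28, edgeR adjusted p = 0.0301). The share of all transcripts called in that fit is not given here, so this count has no share to be set against.

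In the lesioned striatum, 5 of the 10 clock genes differed between chronic and acute L-DOPA, beside 23.3% of 127463 transcripts. Of 14290 genes, 2095 were called higher and 1898 lower. *Per1* and *Cry2* were higher after chronic L-DOPA, and *Per3*, *Dbp* and *Tef* were lower. The groups did not overlap for 6 of the 10 genes, beside 40.3% of all transcripts. The median size of the log2 change over the 10 genes was 0.20, against 0.23 over all transcripts.

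*Dbp* fell from 25.1, 26.5 and 29.3 CPM in acute to 16.6, 17.9 and 19.4 CPM in chronic lesioned libraries. The groups were far apart, and the log2 change was −0.58 ± 0.09 (edgeR adjusted p = 0.00112), with the change past the threshold in all 7 *Dbp* transcripts (−0.61 to −0.49). The span of *Dbp*, introns included, overlaps by 693 bases that of the antisense gene *Sphk2*, which fell by 0.50 ± 0.08 (edgeR adjusted p = 0.00173). The overlap of exons was not computed, and reads of any shared exon bases cannot be told apart. *Per3* fell from 7.55, 7.67 and 8.55 CPM to 5.23, 5.35 and 4.42 CPM, a log2 change of −0.67 ± 0.10 (edgeR adjusted p = 0.000962). *Tef* went from 92.3, 94.7 and 89.7 CPM to 77.4, 73.9 and 82.1 CPM. Its groups did not overlap, and the log2 change was −0.24 ± 0.07 (edgeR adjusted p = 0.0342). *Dbp* and *Per3* were called under all alternatives that were run, whereas the call of *Tef* was lost in 5 of 6 fits without 1 library, all except the fit without chronic lesioned replicate 3 (log2 changes of −0.26 to −0.21, edgeR adjusted p of 0.0576 to 0.133).

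*Per1* rose from 57.4, 61.9 and 68.9 CPM in acute to 80.2, 77.1 and 78.9 CPM in chronic lesioned libraries. The 3 chronic values were close together and above all acute values, and the log2 change was 0.33 ± 0.08 (edgeR adjusted p = 0.0157). *Cry2* rose from 21.6, 23.1 and 24.0 CPM to 32.5, 24.7 and 31.8 CPM (0.38 ± 0.11, edgeR adjusted p = 0.0257), with chronic replicate 2 next to the acute values. The call of *Per1* was lost without acute lesioned replicate 1 or 2 or chronic lesioned replicate 1 (0.27 to 0.32, edgeR adjusted p of 0.0605 to 0.0675). That of *Cry2* was lost in 4 of 6 such fits (0.31 to 0.38, edgeR adjusted p of 0.0766 to 0.111), namely without acute lesioned replicate 1 or 2 and without chronic lesioned replicate 1 or 3. The span of a long transcript of the neighbour *Vamp2* overlaps that of *Per1* by 10041 bases, introns included, on the same strand. *Vamp2* rose by 0.31 ± 0.08 (edgeR adjusted p = 0.0143), with a mean of 3439 counts on that transcript against 5618 on *Per1*.

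The other 5 members were not called in the lesioned striatum. *Arntl* stood at 6.62, 6.79 and 6.22 CPM in acute and 6.80, 5.47 and 6.74 CPM in chronic libraries, with a 95% interval of the log2 difference from −0.26 to 0.17. *Nr1d1* stood at 29.9, 29.1 and 32.4 CPM against 34.0, 29.2 and 32.3 CPM, with an interval from −0.12 to 0.24. Chronic lesioned replicate 2 was the lowest or second lowest library of the 6 for both genes. *Nr1d2* had 17.5, 18.0 and 16.5 CPM against 16.2, 15.6 and 15.2 CPM, groups that did not overlap (40.3% of all transcripts did not) and a log2 difference of −0.15 ± 0.07 (edgeR adjusted p = 0.171). *Per2* and *Cry1* overlapped between the groups, with log2 differences of −0.09 ± 0.09 and −0.05 ± 0.09.

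**Figure D2:**
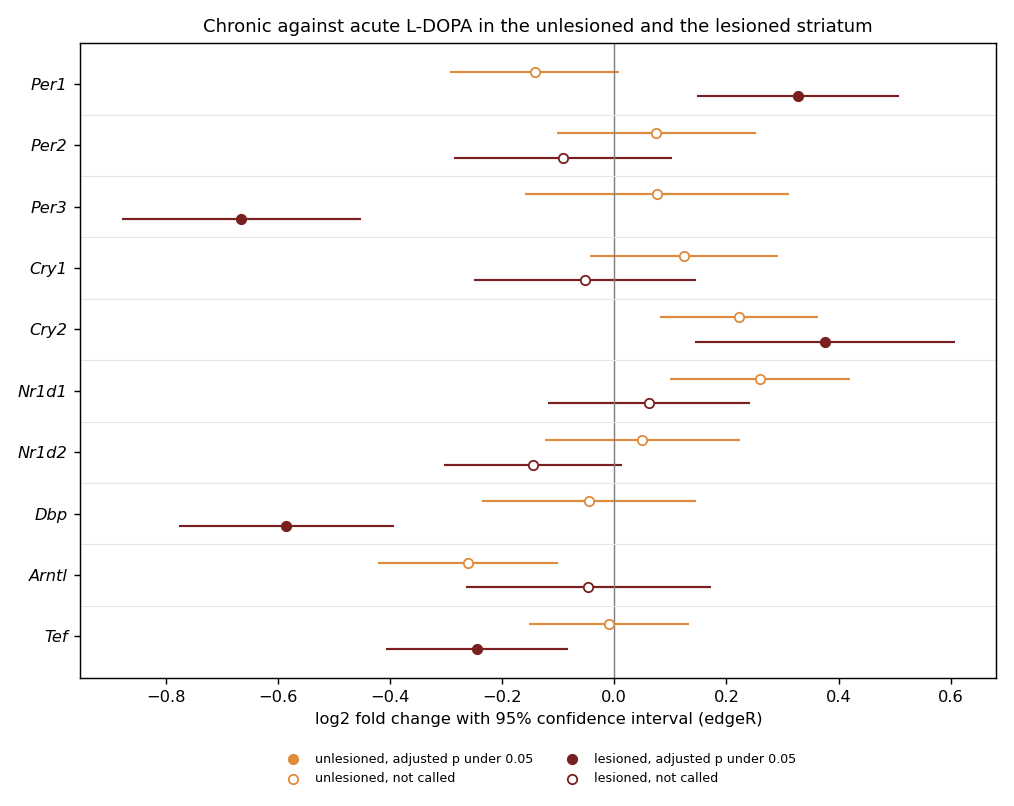
log2 fold change of each clock gene after chronic against acute L-DOPA, in unlesioned and in lesioned striatum, with 95% confidence intervals from edgeR (x axis), where filled points passed an adjusted p of 0.05. No unlesioned point is filled, and *Per3* (−0.67) and *Dbp* (−0.58) lie furthest from 0 in the lesioned striatum.

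Within the acute mice, 3 of the 10 clock genes differed between the lesioned and the unlesioned striatum, against 12.9% of 129674 transcripts. Of 14460 genes, 1255 were called higher and 1317 lower. Lesioned and unlesioned libraries with the same number deviated together from their group means, so the number was taken to mark a pair. Pairs share the hour of collection if both come from 1 mouse. *Per1* rose to 57.4, 61.9 and 68.9 CPM from 27.9, 30.3 and 29.8 CPM, a log2 change of 1.10 ± 0.07 (edgeR adjusted p = 1.13e-06) with all 8 *Per1* transcripts called. *Arntl* fell to 6.62, 6.79 and 6.22 CPM from 10.0, 9.19 and 8.83 CPM, by 0.51 ± 0.07 on the log2 scale (edgeR adjusted p = 0.000655). *Cry2* fell to 21.6, 23.1 and 24.0 CPM from 28.8, 28.0 and 29.5 CPM, by 0.33 ± 0.06 (edgeR adjusted p = 0.00424). For these 3 genes the groups did not overlap, as for 32.6% of all transcripts, the direction was the same in 3 of 3 pairs, and no alternative that was run lost the call. The 6 cortical neuron markers were lower in lesioned striatum (median log2 difference −1.39, 1 of 6 called). Of the medium spiny neuron markers, 4 of 8 were called higher and 3 lower, and 3 of 6 astrocyte, 2 of 6 microglia and 1 of 6 oligodendrocyte markers were called higher, and 1 of 4 tested choroid plexus markers lower. The part of these markers in the changes was not tested.

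The remaining members changed less after acute L-DOPA. *Per3* was 0.22 ± 0.08 higher on the log2 scale in lesioned striatum and in 3 of 3 pairs (edgeR adjusted p = 0.0914), and *Nr1d1* was 0.20 ± 0.07 lower, also in 3 of 3 pairs (edgeR adjusted p = 0.0794). With the replicate number as a block, the count of called members rose from 3 to 6 while the share of all transcripts called rose to 21.8%, adding *Per3* (adjusted p = 0.0481), *Nr1d1* (adjusted p = 0.0131) and *Dbp* (−0.18, adjusted p = 0.0232) in edgeR. The *Nr1d1* transcript free of *Thra* was called without the block as well, at −0.43 ± 0.07 (edgeR adjusted p = 0.00278). *Per2*, *Cry1*, *Nr1d2* and *Tef* had log2 differences between −0.18 and 0.07 and were not called with or without the block.

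After chronic L-DOPA, 6 of the 10 genes differed between lesioned and unlesioned striatum, against 12% of 127063 transcripts. Of 14236 genes, 1297 were called higher and 854 lower. *Per1* was higher and *Per2*, *Per3*, *Nr1d1*, *Dbp* and *Tef* were lower in the lesioned striatum. The median log2 change of the 10 genes was −0.31, beside −0.02 over all transcripts. Of the marker lists, the cortical neuron markers had a median log2 difference of −1.63 (0 of 5 tested called), the choroid plexus markers one of −2.46 (1 of 3 tested called lower), and 2 of 8 medium spiny neuron and 1 of 6 astrocyte markers were called higher. The part of these markers in the changes was not tested.

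*Per1* reached 80.2, 77.1 and 78.9 CPM from 28.3, 26.1 and 25.4 CPM, a log2 change of 1.57 ± 0.08 (edgeR adjusted p = 4.92e-07). *Dbp* fell to 16.6, 17.9 and 19.4 CPM from 29.4, 32.2 and 27.6 CPM, a log2 change of −0.73 ± 0.09 (edgeR adjusted p = 0.000498), with *Sphk2* at −0.47 ± 0.09. These were the largest changes of the members in either direction, and both calls held under all alternatives that were run.

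Of the smaller changes, *Per3* fell to 5.23, 5.35 and 4.42 CPM from 8.48, 6.54 and 6.60 CPM (−0.53 ± 0.12, edgeR adjusted p = 0.0194). *Nr1d1* fell to 34.0, 29.2 and 32.3 CPM from 44.6, 40.3 and 41.2 CPM (−0.40 ± 0.08, edgeR adjusted p = 0.0120), and its transcript free of *Thra* by 0.58 ± 0.10 (edgeR adjusted p = 0.00355). *Per2* fell to 8.10, 7.71 and 9.35 CPM from 11.1, 10.2 and 10.9 CPM (−0.35 ± 0.09, edgeR adjusted p = 0.0319). *Tef* fell to 77.4, 73.9 and 82.1 CPM from 101.0, 91.9 and 97.1 CPM (−0.31 ± 0.08, edgeR adjusted p = 0.0278). In all 4 genes the groups were apart, as for 30.8% of all transcripts. Without chronic unlesioned replicate 1, in which *Per3*, *Nr1d1*, *Per2* and *Tef* were each the highest of the 12 libraries or the second highest, the calls of all 4 genes were lost (log2 changes of −0.40 to −0.28, edgeR adjusted p of 0.0566 to 0.109). The *Tef* call was also lost without each other library except chronic unlesioned replicate 2 (edgeR adjusted p up to 0.106). That of *Per2* was also lost without chronic unlesioned replicate 3 or chronic lesioned replicate 1 or 2 (edgeR adjusted p up to 0.121), and that of *Per3* without chronic lesioned replicate 3 (edgeR adjusted p = 0.0869).

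*Nr1d2* (−0.28 ± 0.08, edgeR adjusted p = 0.0511) and *Arntl* (−0.30 ± 0.10, edgeR adjusted p = 0.0770) did not pass the test, with groups that did not overlap. Both were called with the replicate block (adjusted p = 0.00895 and 0.0159 in edgeR), which brought the count to 8 of 10, beside 21.6% of all transcripts. *Cry1* (−0.11 ± 0.10) and *Cry2* (−0.18 ± 0.11) were not called in any fit of this comparison. In *Cry2* the lesioned libraries stood at 32.5, 24.7 and 31.8 CPM, beside an unlesioned range of 32.0 to 35.3 CPM, so that lesioned replicate 2 was the lowest and replicate 1 lay inside that range.

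**Figure D3:**
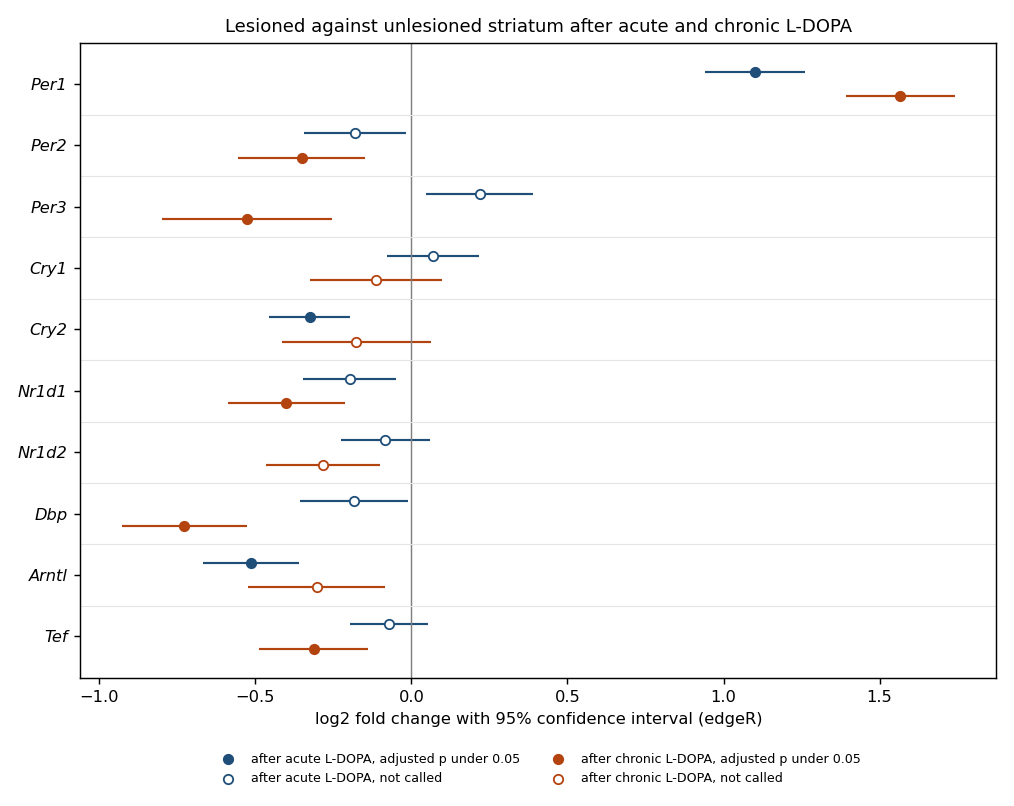
log2 fold change of each clock gene in lesioned against unlesioned striatum, after acute and after chronic L-DOPA, with 95% confidence intervals from edgeR (x axis), where filled points passed an adjusted p of 0.05. *Per1* is at 1.10 and 1.57, and *Dbp* moves from −0.18 after acute to −0.73 after chronic L-DOPA.

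The lesion effect itself differed between acute and chronic L-DOPA for 3 of the 10 genes in a test of the interaction over all 12 libraries, against 4.52% of 130867 transcripts. Of 14596 genes, 672 were called with a positive and 284 with a negative interaction. The effect on *Per1* was larger after chronic L-DOPA by 0.47 ± 0.10 on the log2 scale (edgeR adjusted p = 0.0174). That on *Per3* was lower by 0.74 ± 0.15 in the chronic mice (−0.74, edgeR adjusted p = 0.0113), and the lesioned-to-unlesioned log2 ratio of the pairs was 0.08 to 0.46 after acute and −0.70 to −0.29 after chronic L-DOPA. For *Dbp* the pairs ran from −0.23 to −0.10 after acute and from −0.85 to −0.51 after chronic L-DOPA, and the interaction was −0.54 ± 0.13 (edgeR adjusted p = 0.0248). The other 7 genes had interactions between −0.24 (*Tef*) and 0.21 (*Arntl*), none of which passed. *Per3* was called under all alternatives that were run. *Dbp* lost its call without acute unlesioned replicate 1 or 2, acute lesioned replicate 2 or 3, chronic unlesioned replicate 2 or chronic lesioned replicate 1 (−0.55 to −0.47, edgeR adjusted p of 0.0518 to 0.0751). *Per1* lost it without acute unlesioned replicate 2 or acute lesioned replicate 1 or 2 (0.41 to 0.46, edgeR adjusted p of 0.0517 to 0.0532).

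Ratios of counts within a library do not depend on scaling between libraries. The log2 ratio of *Dbp* to *Arntl*, an output gene to the activator, was 1.56, 1.63 and 1.95 in acute unlesioned and 1.87, 2.08 and 1.82 in chronic unlesioned striatum, which overlap. In lesioned striatum it was 1.92, 1.96 and 2.23 after acute and 1.29, 1.71 and 1.52 after chronic L-DOPA, with no overlap. The log2 ratio of *Nr1d1* to *Arntl* was 1.75, 1.86 and 2.11 in acute and 2.47, 2.40 and 2.40 in chronic unlesioned striatum, with no overlap. Its values in lesioned striatum were 2.17, 2.10 and 2.38 after acute and 2.32, 2.42 and 2.26 after chronic L-DOPA, which overlap. *Per1* to *Per2* was 1.34 to 1.71 in acute and 1.23 to 1.35 in chronic unlesioned libraries, and 2.67 to 2.92 and 3.08 to 3.32 in the lesioned ones. No test was run on these ratios.

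**Figure D4:**
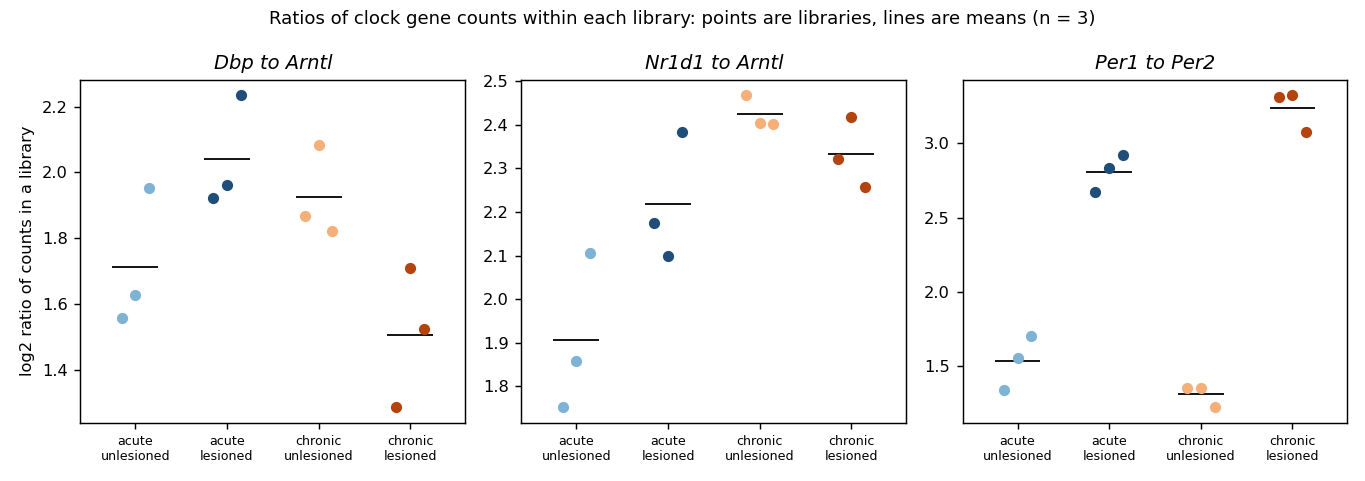
log2 ratio of counts of *Dbp* to *Arntl*, *Nr1d1* to *Arntl* and *Per1* to *Per2* in each library (y axis, which does not start at 0), by group, with a line at the mean of 3 libraries. Chronic lesioned libraries lie below acute lesioned ones for *Dbp* to *Arntl* (1.29 to 1.71 against 1.92 to 2.23), and chronic unlesioned libraries lie above acute unlesioned ones for *Nr1d1* to *Arntl*.

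A list of 18 further clock genes was tested in the same fits. In unlesioned striatum, 1 of 18 was higher and 0 were lower after chronic L-DOPA, beside 2.61% of all transcripts called in either direction, namely *Bhlhe40* (DEC1), a repressor of the loop that also responds to stimulation, at 18.2 ± 1.8 CPM against 13.1 ± 0.2 CPM (SD, n = 3; log2 change 0.47 ± 0.08, edgeR adjusted p = 0.0175). That call was lost in 5 of 6 fits without 1 library (all except the fit without chronic unlesioned replicate 2) and in the fit over 12 libraries. In lesioned striatum, 6 of 18 were higher and 4 were lower, beside 23.3% of all transcripts called, and the median size of the change over the list was 0.36, against 0.23 over all transcripts.

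Of the 6 genes that were higher, *Bhlhe40* rose from 22.0 ± 4.9 to 58.1 ± 8.4 CPM (1.40 ± 0.15, edgeR adjusted p = 0.000146), and its relative *Bhlhe41* by 0.47 ± 0.11. *Npas2*, which can replace CLOCK, rose by 0.53 ± 0.13, and *Arntl2*, the paralogue of *Arntl*, by 0.63 ± 0.19. *Fbxl21*, which encodes an F-box protein that acts on CRY, rose from 1.57 ± 0.14 to 3.62 ± 0.51 CPM (1.21 ± 0.13). *Csnk1d*, a kinase that phosphorylates PER, rose by 0.22 ± 0.07, a call lost in each fit without 1 library. Leaving out a single library also ended the calls of *Arntl2* in 5 of 6 fits and of *Bhlhe41* in 3 (edgeR adjusted p up to 0.125 and 0.0601), DESeq2 did not call *Arntl2* either, and that of *Npas2* without chronic lesioned replicate 1 (edgeR adjusted p = 0.0565).

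The 4 genes that were lower included *Gm129* (CIART, a repressor of the ARNTL pair), which fell from 12.7 ± 2.4 to 3.93 ± 1.17 CPM (−1.69 ± 0.20, edgeR adjusted p = 0.000269). *Nfil3*, which represses at the same D-box where DBP and TEF activate, fell from 8.94 ± 0.26 to 5.44 ± 0.37 CPM (−0.72 ± 0.08). *Usp2*, a deubiquitinase gene that follows the clock, fell by 0.55 ± 0.07. *Rorb*, of the receptor family that activates *Arntl*, fell by 0.56 ± 0.14 from a mean of 2.84 CPM, and its call was lost in 3 of 6 fits without 1 library (edgeR adjusted p up to 0.0686). After acute L-DOPA *Gm129* and *Nfil3* stood at 2.32 ± 0.12 and 1.49 ± 0.08 CPM in the unlesioned striatum, so both were above it in lesioned striatum (2.45 ± 0.13 and 2.58 ± 0.08 on the log2 scale). Counts for the lesion were 4 of 18 higher and 2 lower after acute (12.9% of all transcripts were called) and 5 higher and 0 lower after chronic L-DOPA (12%). Both lower calls after acute L-DOPA depended on single libraries, with *Npas2* lost without acute unlesioned replicate 2 or 3 or acute lesioned replicate 1 or 2, and in the fit over 12 libraries (edgeR adjusted p up to 0.229). *Wee1* was lost without acute unlesioned replicate 2 or 3 or acute lesioned replicate 1 (edgeR adjusted p up to 0.0933). After chronic L-DOPA *Arntl2* was lost without chronic unlesioned replicate 3 or chronic lesioned replicate 1 or 3 (edgeR adjusted p up to 0.0879) and *Csnk1d* without chronic unlesioned replicate 1 (edgeR adjusted p = 0.0598).

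**Figure D5:**
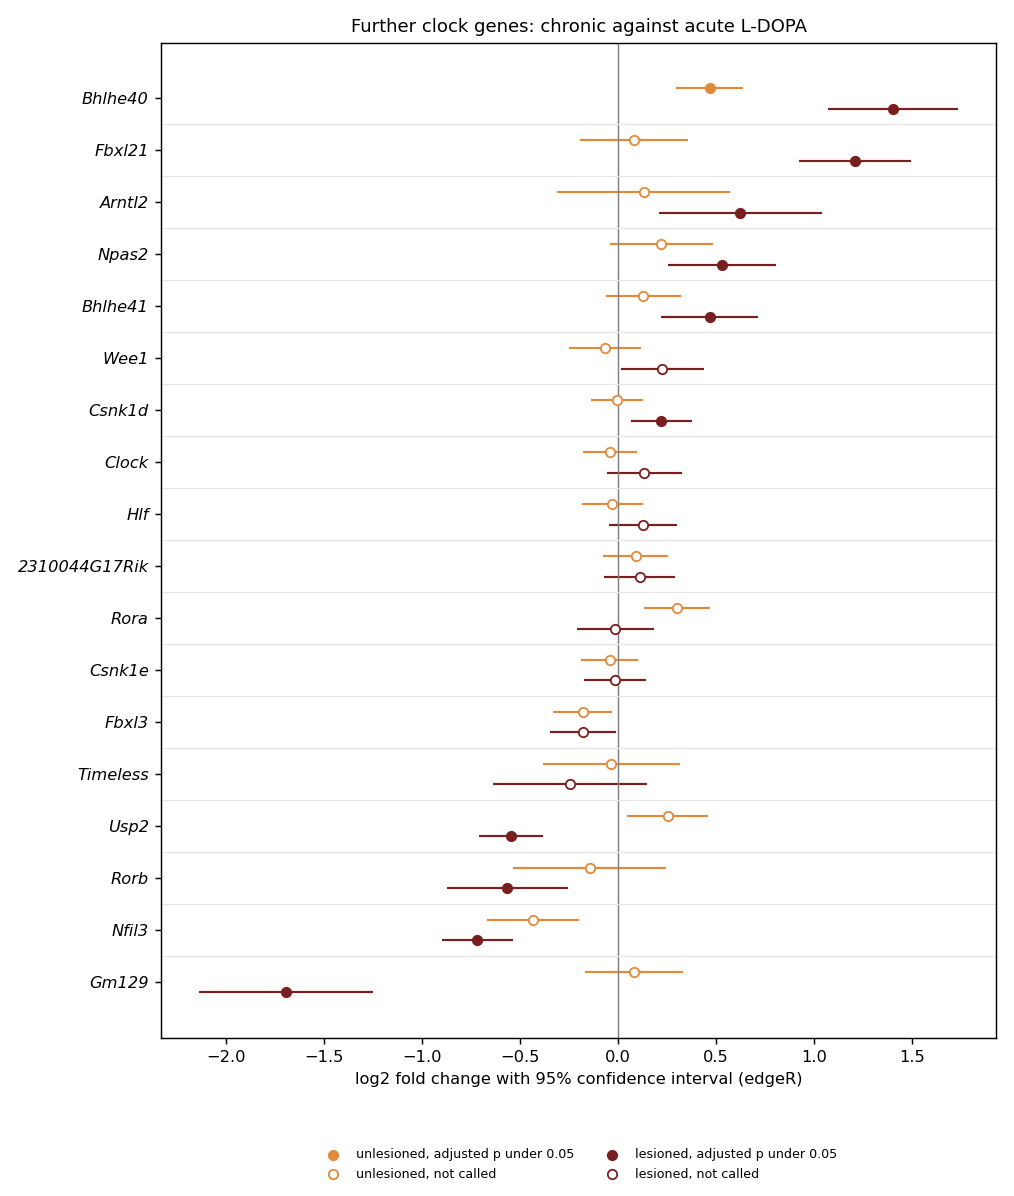
log2 fold change of 18 further clock genes after chronic against acute L-DOPA, in unlesioned and in lesioned striatum, with 95% confidence intervals from edgeR (x axis), sorted by the lesioned change, where filled points passed an adjusted p of 0.05. *Bhlhe40* (1.40 lesioned, 0.47 unlesioned) is at the top and *Gm129* (−1.69 lesioned) at the bottom.

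Genes that respond to neuronal activity, to glucocorticoids or to temperature moved with several of these comparisons, and their part in the clock gene differences was not tested. For chronic against acute L-DOPA, 2.61% of all transcripts were called in unlesioned and 23.3% in lesioned striatum. For the lesion the shares were 12.9% after acute and 12% after chronic L-DOPA. Of 8 activity-induced genes (*Fos*, *Arc* and others), 8 were higher in lesioned striatum after acute (median log2 change 3.17) and after chronic L-DOPA (3.71). In unlesioned striatum 7 of the 8 were lower after chronic than after acute L-DOPA (median −0.77), with summed levels of 151 to 189 CPM against 255 to 268 CPM. Of 10 glucocorticoid-responsive genes, 0 were called in the unlesioned striatum and 2 were higher and 7 lower after chronic L-DOPA in the lesioned striatum. Their summed levels there were 192 to 203 CPM after chronic and 206 to 262 CPM after acute L-DOPA. In lesioned against unlesioned striatum, 4 of the 10 were higher after acute (median 0.48) and 1 after chronic L-DOPA. Of 8 temperature-dependent genes, 2 were higher and 1 lower in unlesioned striatum, and 1 was higher and 7 lower in lesioned striatum (166 to 230 CPM against 351 to 573 CPM). For the lesion, 4 of these 8 were higher after acute (median 1.10) and 3 after chronic L-DOPA (median 0.40). All 6 oligodendrocyte markers were called lower for chronic against acute L-DOPA on the lesioned side, with sums of 1162 to 2099 CPM against 2114 to 3496 CPM. In the same comparison 4 of 6 microglia markers (42.1 to 52.3 CPM against 62.9 to 74.7 CPM), 3 of 4 blood markers (1.69 to 3.29 CPM against 4.99 to 9.77 CPM) and 2 of 6 astrocyte markers were called lower, while 1 of 8 medium spiny neuron markers was called higher and 2 lower, and 1 of 4 tested choroid plexus markers higher. In the unlesioned striatum 2 of 6 microglia, 2 of 6 astrocyte and 1 of 8 medium spiny neuron markers were called lower after chronic L-DOPA. In bulk tissue, fewer cells of a type and less RNA per cell cannot be told apart.

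Among 12784 genes with a mean of at least 1 CPM, the patterns most like that of *Per1* over the 12 libraries were those of *1700064E03Rik* (Pearson r of 0.996 on log2 CPM), *Kdm6b* and *Gm13889* (0.994 each). For *Dbp* they were *Plxdc1* (0.975), *2310011J03Rik* (0.974) and *C530028O21Rik* (0.973), and for *Arntl* they were *Ecd* (0.973), *Vps39* (0.962) and *Ppp1r12a* (0.956). These values describe likeness over libraries that share 4 groups, not independent samples.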

How the data were processed

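RNA-seq libraries of 12 striatal samples were analysed, 3 per group, with groups and replicate numbers read from the sample labels. According to the study's methods and the submitters' processing notes, libraries were made with a TruSeq kit, reads were mapped to mm9, and comparisons were made with DESeq. The authors deposited read counts per transcript of the Genomatix list (189660 transcripts), without normalization, and a normalized expression signal, which divides counts by transcript length and by the size of the library. The kit does not mark strand, and reads shared by several transcripts count on each of them. Their 3 tables of comparisons hold fold changes and p-values and were not used, nor were 36 columns of per-sample values in them. 296 transcripts that name no gene held 0.0485% of the counts and were left out.

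The 10 members and all gene lists were chosen with earlier results of these data known. Counts were tested with edgeR 4.0.16 (limma 3.58.1, R 4.3.3) by filterByExpr, TMM, glmQLFit and glmQLFTest, on the 6 libraries of a comparison, or on 12 for the interaction, with Benjamini-Hochberg adjustment over all transcripts and a threshold of 0.05. Log2 fold changes are edgeR's, with standard errors from the F statistic. CPM uses effective TMM library sizes. The genes named are the 10 members, further clock genes called in a comparison of chronic with acute L-DOPA, and the 3 genes most alike to *Per1*, *Dbp* and *Arntl*. *Sphk2*, *Thra* and *Vamp2* are named because they overlap a member, and *Wee1* was named after its values were seen. In the list of further clock genes, a symbol first written in error for *Cipc* was replaced by *2310044G17Rik*, its symbol in the table, after the data were seen. A withheld item of that list is not reported here.

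The totals of 87695043 to 173116525 counts per library limit the precision by counting error only, and the reads carry no molecular identifiers. These totals, to which CPM is relative, count a shared read on several transcripts. On 1 transcript per gene the libraries held 18373807 to 36492574 counts. The series design counts 12 mice for 12 libraries. The study presents the unilateral lesion as a model in which the sides of a mouse can be compared, but its account of the RNA sequencing does not say whether libraries share a mouse. The deviations of same-numbered lesioned and unlesioned libraries from their group means correlated at 0.485, 0.438 and 0.394 (acute) and 0.522, 0.562 and 0.150 (chronic) across genes, all above the limit of 0.1, so the numbers were taken to pair them. Unlike-numbered libraries gave −0.337 to −0.0995 (acute) and −0.517 to 0.158 (chronic). Chronic lesioned replicate 2 and acute lesioned replicate 1, from separate sets of mice, gave 0.381, so this limit does not settle the pairing. P-values measure the spread between these libraries. The fits were tested on simulated data.

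Alternatives were DESeq2's size factors, DESeq2 1.42.0, no filter on low counts, 1 transcript per gene, a fit over 12 libraries, the replicate block and each library left out. Chosen after seeing the data were 1 transcript per gene with known GC content, the same with a trend on GC content and length removed, and a transcript that overlaps no other gene. Promoters were read from RefSeq, and sequences and figures were handled with Python 3.11.15, using matplotlib 3.10.9 and pandas 2.3.3 (numpy 2.4.6).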

Additional observations from a re-analysis of the deposited data

Results flagged for a closer look

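For 7 clock genes the lesion effect differed between chronic and acute L-DOPA by the interaction test in edgeR. Of the 10 members 1 was called higher and 2 lower, and of the 18 further clock genes 2 were called higher and 2 lower. Over all transcripts tested, 4.52% were called. The difference on the log2 scale was 0.47 for *Per1*, −0.74 for *Per3* and −0.54 for *Dbp*. Among the further clock genes it was 0.93 for *Bhlhe40*, −1.78 for *Gm129*, 1.13 for *Fbxl21* and −0.80 for *Usp2*, and these 4 kept their calls under all 19 alternatives of that comparison. Of the members, *Per3* kept its call throughout, while *Dbp* lost it in 6 and *Per1* in 3 of 19 alternatives. For *Per3* the lesion effect was 0.22 after acute L-DOPA, which was not called (edgeR adjusted p = 0.0914), and −0.53 after chronic L-DOPA. For *Usp2* it was 0.49 in acute and −0.32 in chronic mice, the latter not called (edgeR adjusted p = 0.0817). The causes of these differences were not tested, and the hour of collection and the number of doses cannot be told apart in them.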

How the results depend on the processing

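Counts are of members called out of 10. In acute lesioned against unlesioned striatum the count of 3 became 6 with the replicate block, where 21.8% of all transcripts were called. It became 5 with the GC and length trend removed. That fit called 1430 of 14460 genes higher and 1744 lower, against 1255 and 1317 before removal. The count ranged from 3 to 4 without 1 library, with *Nr1d1* added without AL_R replicate 3 (−0.25, edgeR adjusted p = 0.0413). After chronic L-DOPA the count of 6 became 8 with the replicate block, where 21.6% of all transcripts were called, 8 with all 12 libraries and 8 with the trend removed. With the trend removed 1342 of 14236 genes were called higher and 1271 lower, against 1297 and 854 before removal. The count was 7 with no filter or with 1 transcript per gene, and ranged from 2 to 6 when 1 library was left out. For lesioned chronic against acute the count of 5 became 4 with the block, losing *Tef*, and ranged from 2 to 4 without 1 library. For unlesioned chronic against acute the count of 0 stayed 0 with the block and became 2 with DESeq2, which called 5.62% of its transcripts. It became 2 with the trend removed, where 337 of 14372 genes were called higher and 335 lower, against 166 and 263 before removal. Without 1 library it ranged from 0 to 2, with 2 only without ChL_L replicate 2. The interaction count was 3 with the block and ranged from 1 to 3 without 1 library. The block also ended the call of *Csnk1d* in lesioned chronic against acute, and it changed no other call of a member beyond those named here or beside the results. Across chronic and acute L-DOPA the numbers mark no pairs. For the other fits named here no share of all transcripts called is given. The cause of each change was not tested.

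Directions turned only in members with changes near 0 that were not called. In lesioned chronic against acute these were *Cry1* (−0.12 to 0.011 without 1 library) and *Arntl* (−0.097 to 0.053), both turned without ChL_R replicate 2. In unlesioned chronic against acute, *Tef* was 0.0031 with 1 transcript per gene, 0.0054 with known GC content, 0.0093 with the trend removed, and −0.035 to 0.020 without 1 library (turned without AL_L replicate 1 or ChL_L replicate 2). *Dbp* was 0.032 with the trend removed and −0.11 to 0.038 without 1 library (AL_L replicate 3 or ChL_L replicate 3). *Per3* was −0.031 on its transcript that overlaps no other gene and −0.049 to 0.14 without 1 library (ChL_L replicate 1). *Dbp* (GC content at percentile 97.5 of the genes) and *Per1* (percentile 93.8) kept their calls with the trend removed. No transcript of *Dbp* or *Per1* is free of an overlapping gene, so that alternative gave no value for them. Depth limits *Per3* and *Cry1* most, with 459 and 503 counts in their lowest library.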
